A study of Mus musculus with 20 samples.

Results

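The 10 genes described here, Pparg, Marco, Chil3, Saa3, Clec4d, Cfp, Car4, Itgax, Fabp4 and Acp5, are genes known from alveolar macrophages, and they were chosen by their RPKM levels in batch 3, which stood above those of the other batches. They are 10 of the 45705 genes in the expression table and 10 of the 27614 genes that were tested, meaning those with at least 1 RPKM (a read number divided by the length of the gene and by the size of the library) in at least 4 of the 20 libraries. The 5 libraries of batch 3 alone can meet this filter. Marco and Chil3 were below 1 RPKM in 12 of the 15 other libraries, so they passed only through batch 3. The selection rested on batch 3 against batches 1, 2 and 4, so that difference is described with no test. The tests reported are of the difference between cell populations. Each of the 4 batches holds all 5 populations, so the selection did not use that difference. It did affect the spread: without a batch term, the batch 3 values that chose the genes enter the spread of each population. A lack of calls in such a fit is thus not read as a lack of difference.

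The cells came from the periventricular zone of Swiss Webster mice at postnatal day 5, with all pups of a litter, male and female, pooled. They were sorted on 4 surface antigens (CD133, CD15/LeX, CD140a and NG2) into neural stem cells (NSCs) and 4 progenitor populations, BNAP/GRP1, GRP2/MP3, GRP3 and PFMP. BNAP/GRP1 and GRP2/MP3 each hold a mixture of progenitor types that share their antigens (BNAP, a bipotential neuronal-astrocytic progenitor; GRP, glial-restricted progenitors; MP, multipotential progenitors; PFMP, a multipotential progenitor responsive to PDGF and FGF). There was 1 library of each population in each batch, so n = 4 libraries per population, and polyA+ RNA was amplified before sequencing. The study names no antigen that was used to remove myeloid cells from the sort.

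Alveolar macrophages are the resident phagocytes of the air spaces of the lung, where they clear surfactant lipid and inhaled particles. Their identity is set up after birth by GM-CSF and TGF-beta, which act through the nuclear receptor PPARG, and they are known for lipid handling genes such as Fabp4, for the integrin CD11c (Itgax) and for the scavenger receptor MARCO. Several of the 10 genes are also made by other cells: Fabp4 and Pparg by adipocytes, Car4 and Fabp4 by endothelium, Acp5 by osteoclasts, Chil3 by monocytes and neutrophils, and Saa3 and Clec4d by many kinds of activated macrophage.

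Batch 3 stood apart from the other batches as a whole. The summed level of 15 neural stem and progenitor genes was 148 to 272 RPKM in the 5 libraries of batch 3 and 361 to 17948 RPKM in the 15 others, and 7 of the 15 were lower in every batch 3 library than in every other library, where 6.97% of all genes tested were. Gfap, an astrocyte and stem cell filament, was at 0 to 0.01 RPKM in batch 3, and Nes, the intermediate filament of neural precursors, at 0.24 to 0.87 RPKM. Of the genes of 2 sorting antigens, Pdgfra (CD140a) was at 1.15 to 3.84 RPKM and Cspg4 (NG2) at 0.036 to 0.40 RPKM across batch 3. In the other libraries Pdgfra ran from 0.73 to 803 RPKM (median 7.49) and Cspg4 from 0.25 to 146 RPKM (median 7.89), so both overlapped with batch 3. The batch 3 libraries are therefore named by their labels only (PFMP of batch 3 is the library labelled PFMP), and which cells or tissue they came from was not tested. Depth relative to the BNAP/GRP1 library of batch 1, read from the smallest steps of the RPKM values, was 0.733 to 1.41 in batch 3 and 0.0395 to 1 elsewhere, where it was lowest in BNAP/GRP1 of batch 4. Across the 27614 genes the median difference in mean log2(RPKM + 1), batch 3 minus the others, was -0.64, and 5.18% of the genes were higher in all 5 libraries of batch 3 than in any of the 15 others. In bulk samples, fewer cells of a type and less RNA per cell cannot be told apart.

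All 10 genes were high in each of the 5 batch 3 libraries, whatever the population on the label. In 8 of them the 5 batch 3 libraries all lay above the 15 others, and the exceptions were Car4 and Itgax. The difference in mean log2(RPKM + 1) ran from 2.73 for Car4 to 13.8 for Saa3, with a median of 6.03. These are the values that chose the genes. Together the 10 genes made up 1.72% to 1.96% of the summed RPKM of a batch 3 library and 0.000266% to 0.0111% of that of any other library.

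**Figure D1:**
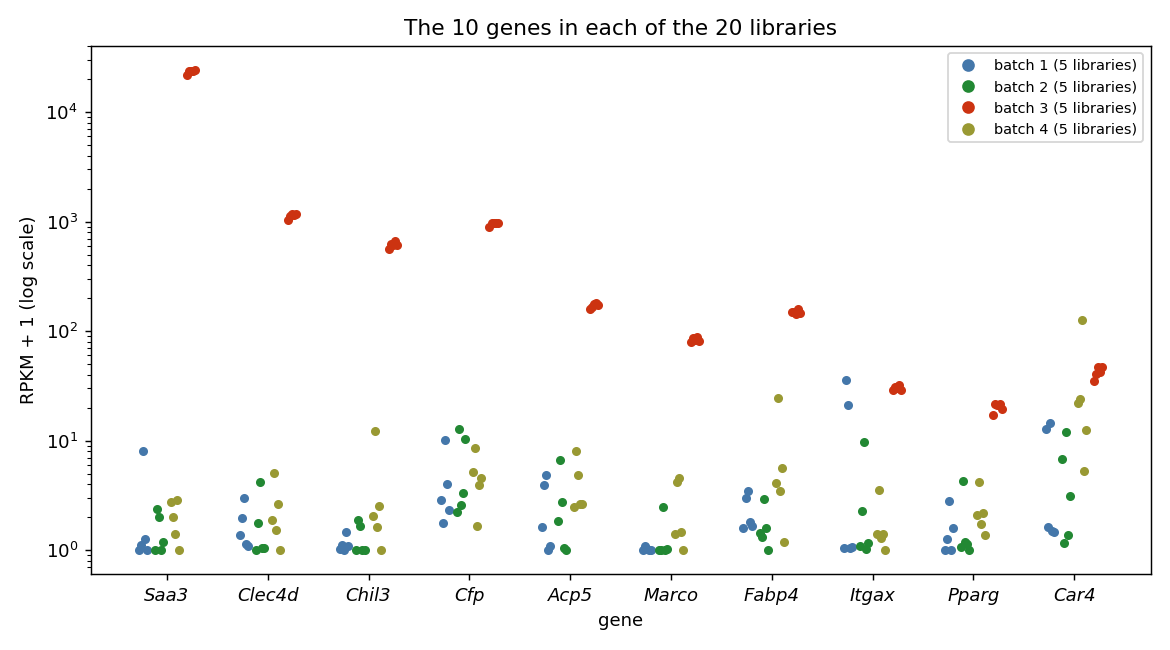
RPKM + 1 on a log scale for each of the 10 genes in the 20 libraries, 1 point per library coloured by batch, genes ordered by the difference between batch 3 and the rest. The batch 3 points lie above all others except for Car4, where GRP2/MP3 of batch 4 reached 126.7 RPKM, and Itgax, where BNAP/GRP1 of batch 1 reached 35.2 RPKM.

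The pathogen response genes had the highest levels. Saa3 (ENSMUSG00000040026, chr7:46711998-46715700, minus strand, GRCm38) encodes a serum amyloid A that macrophages secrete in inflammation. Its level in batch 3 was 24245 RPKM in PFMP, 23475 in GRP3, 23645 in GRP2/MP3, 23681 in BNAP/GRP1 and 21804 in NSC (mean 23370 ± 922, SD, n = 5 libraries). In the 15 other libraries it lay between 0 and 6.97 RPKM with a median of 0.28, and it was listed at 0 in 5 of them. By mean RPKM in batch 3 it ranked 10 among the 45705 genes. The lowest batch 3 library was thus 3128 times the highest library outside it.

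Clec4d (ENSMUSG00000030144, chr6:123262111-123275265, plus strand) encodes a C-type lectin receptor for mycobacterial and fungal ligands. It was at 1167, 1147, 1180, 1135 and 1032 RPKM in PFMP, GRP3, GRP2/MP3, BNAP/GRP1 and NSC of batch 3, against 0 to 4.12 RPKM (median 0.53) in the others. Cfp (ENSMUSG00000001128, chrX:20925454-20931555, minus strand) encodes properdin, the stabiliser of the alternative complement convertase. Its batch 3 levels were 974, 964, 971, 970.5 and 883 RPKM in the same order, against 0.67 to 11.7 RPKM (median 2.91) elsewhere, and Cfp and Car4 were the members never listed at 0. Chil3 (ENSMUSG00000040809, chr3:106147554-106167564, minus strand), a secreted chitinase-like protein also called Ym1, was at 611, 658, 617, 621 and 558 RPKM against 0 to 11.3 RPKM (median 0.12). In all 3 genes the populations of batch 3 lay close together and NSC was lowest.

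The promoters of the 4 genes with the largest difference between batch 3 and the rest are shown because these genes were high together in all 5 populations of the batch. Each sequence is the 250 bases before the RefSeq start (GRCm38.p6), written 5′ to 3′ on the strand of the gene: Saa3 at chr7:46715677-46715926, minus strand; Clec4d at chr6:123261857-123262106, plus strand; Chil3 at chr3:106167565-106167814, minus strand; and Cfp at chrX:20931556-20931805, minus strand. Capitals mark a match, on either strand, to GAGGAA (the core bound by PU.1 and other ETS factors), AGGTCA (the repeat unit bound by nuclear receptors such as PPARG with its partner RXR), TTGCNNAA (bound by C/EBP factors) or TATAAA (the TATA box).
Saa3: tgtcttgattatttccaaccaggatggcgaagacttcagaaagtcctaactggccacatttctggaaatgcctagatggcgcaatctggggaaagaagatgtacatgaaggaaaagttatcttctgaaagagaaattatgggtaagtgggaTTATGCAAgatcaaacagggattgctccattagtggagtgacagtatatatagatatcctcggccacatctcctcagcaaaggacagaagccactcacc
Clec4d: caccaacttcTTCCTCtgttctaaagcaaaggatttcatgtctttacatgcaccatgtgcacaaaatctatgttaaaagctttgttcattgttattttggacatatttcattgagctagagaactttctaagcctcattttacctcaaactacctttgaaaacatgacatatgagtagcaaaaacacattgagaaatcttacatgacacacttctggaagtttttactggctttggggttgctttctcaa
Chil3: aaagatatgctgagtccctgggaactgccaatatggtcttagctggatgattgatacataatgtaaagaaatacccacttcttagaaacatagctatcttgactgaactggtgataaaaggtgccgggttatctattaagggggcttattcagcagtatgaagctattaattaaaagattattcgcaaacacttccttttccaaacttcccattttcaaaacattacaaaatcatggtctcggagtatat
Cfp: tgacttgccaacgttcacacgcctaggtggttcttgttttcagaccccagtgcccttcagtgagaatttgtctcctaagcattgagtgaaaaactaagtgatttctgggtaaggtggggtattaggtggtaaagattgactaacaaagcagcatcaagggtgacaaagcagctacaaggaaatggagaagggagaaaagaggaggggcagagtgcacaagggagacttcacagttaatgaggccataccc

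On the opposite strand, Saa3 held TTGCNNAA at position -99 and Clec4d held GAGGAA at position -240, both counted from the start to the first base of the match in the printed sequence. The GENCODE gene of Saa3 begins within the last bases of its window. Chil3 and Cfp held none of the 4 words in this window. Of the 9 members with a RefSeq promoter entry (all but Fabp4; 13 starts, since Pparg and Acp5 had 3 each), 3 held GAGGAA (Pparg, Marco and Clec4d), 1 held AGGTCA (Pparg), 2 held TTGCNNAA (Pparg and Saa3) and 1 held TATAAA (Pparg). Counted by start, 3, 2, 2 and 1 of the 13 starts held these words. Of 32851 promoters over the same 250 bases before the start, 23.3% held GAGGAA, 14% AGGTCA, 9.56% TTGCNNAA and 12.4% TATAAA.

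The receptors that mark alveolar macrophages were lower than the inflammatory genes. Marco (ENSMUSG00000026390, chr1:120474538-120505024, minus strand), a scavenger receptor for unopsonised particles and bacteria, was at 80.9 RPKM in PFMP, 87.7 in GRP3, 81.9 in GRP2/MP3, 85.7 in BNAP/GRP1 and 78.8 in NSC of batch 3. Elsewhere it was at 0 in 7 libraries and at most at 3.58 RPKM, in GRP2/MP3 of batch 4. Itgax (ENSMUSG00000030789, chr7:128129547-128150657, plus strand), which encodes the integrin alpha chain CD11c, was at 28.2, 31.5, 29.5, 29.8 and 28.3 RPKM in the same order of populations. Its levels overlapped with other batches, where BNAP/GRP1 of batch 1 had 35.2 RPKM and GRP2/MP3 of batch 1 had 20.2 RPKM while the median of the 15 was 0.29.

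Pparg (ENSMUSG00000000440, chr6:115360951-115490399, plus strand), the nuclear receptor that drives the lipid programme, had the lowest level of the 10 genes in batch 3. It was at 18.7 RPKM in PFMP, 20.7 in GRP3, 19.99 in GRP2/MP3, 20.6 in BNAP/GRP1 and 16.03 in NSC, against 0 to 3.30 RPKM (median 0.37) in the 15 others. Fabp4 (ENSMUSG00000062515, chr3:10204088-10208576, minus strand), a fatty acid binding protein and PPARG target, was at 145, 158, 142, 149.6 and 148 RPKM in the same order. Outside batch 3 its highest level was 23.4 RPKM in BNAP/GRP1 of batch 4, the shallowest library, and the next was 4.69 RPKM, so for Fabp4 too the groups did not overlap.

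The remaining genes encode enzymes. Acp5 (ENSMUSG00000001348, chr9:22126727-22135711, minus strand), tartrate-resistant acid phosphatase, was at 174, 181, 178, 166 and 158 RPKM in PFMP, GRP3, GRP2/MP3, BNAP/GRP1 and NSC of batch 3 and at 0 to 7.01 RPKM (median 1.62) elsewhere. Car4 (ENSMUSG00000000805, chr11:84957786-84966044, plus strand), a membrane-bound carbonic anhydrase, was at 45.9, 41.6, 46.4, 39.8 and 34.1 RPKM in the same order. It was the member with the highest median outside batch 3 (5.82 RPKM, range 0.16 to 126.7). The values just inside and just outside non-overlap were those of Pparg, whose lowest batch 3 library was 4.86 times the highest other library, and of Itgax, for which this ratio was 0.802.

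The reads behind these values were many in batch 3 and few elsewhere. For 8 of the 10 genes (not Chil3 and Itgax) the RPKM values of the libraries with low levels were whole multiples of a common step within a tolerance of 0.01 reads. This gives read numbers that are a lower bound. In batch 3 the same step and the estimated relative depth were used and the result rounded. Wholeness was not checked there, so the batch 3 read numbers are approximate. Saa3 had 407472 to 849208 reads in a batch 3 library and at most 62 elsewhere, where 10 of the 15 libraries had at most 3. Pparg had 1683 to 4159 reads in batch 3 and 0 to 107 elsewhere, and Marco 8774 to 18310 against 0 to 157. In BNAP/GRP1 of batch 4, the library with the highest value outside batch 3 for 4 of the 10 genes, Saa3 had 1 read, Clec4d 16, Acp5 28 and Fabp4 118. For all 8 genes the exact Poisson 95% intervals of the lowest and the highest batch 3 library lay apart. Those of Pparg were 15.3 to 16.8 and 19.96 to 21.5 RPKM, and such intervals cover counting error only.

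Within batch 3 most of the 10 genes varied little between libraries. Their coefficient of variation over the 5 libraries had a median of 4.88% (3.95% for Saa3 to 12.03% for Car4), with Pparg at 10.2%, beside 8.73% for the 6473 genes tested with a mean of at least 10 RPKM in batch 3. Over the 15 other libraries the same medians were 186% for the members and 78.0% for those genes. NSC had the lowest batch 3 level in 8 of the 10 genes, the exceptions being Itgax (PFMP) and Fabp4 (GRP2/MP3), where 32.8% of the 6473 genes had their lowest level in NSC. NSC of batch 3 also had the highest neural sum of the batch (272 RPKM), with Sox2 at 19.8 RPKM (0.47 at the lowest library of the batch) and Prom1, the gene of CD133, at 10.01 RPKM (0.26 at the lowest). The part of these neural transcripts in the lower member levels of NSC was not tested.

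**Figure D2:**
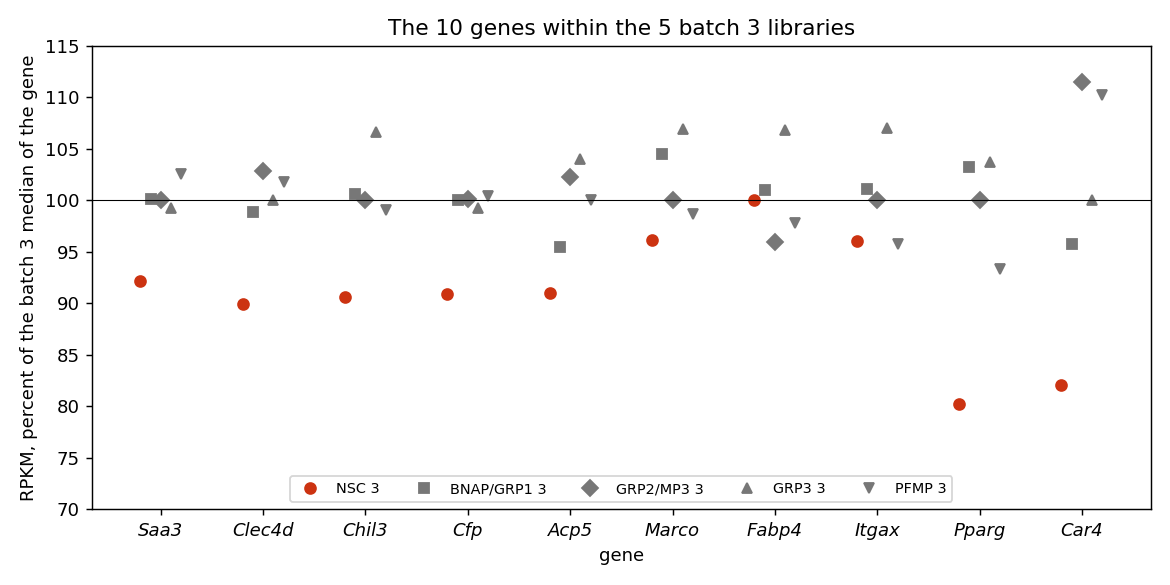
Level of each gene in the 5 batch 3 libraries as a percent of the median of that gene over them, 1 symbol per population, with NSC in red; the axis starts at 70%. NSC lies lowest in 8 of the 10 genes, from 80.2% (Pparg) to 96.1% (Marco), and the highest value is 111% (Car4 in GRP2/MP3).

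The progenitor populations were then compared with NSCs, the contrast of the study, with limma on log2(RPKM + 1) over all 20 libraries. None of the 10 genes passed an adjusted p of 0.05 in any of the 4 contrasts. Of all genes tested, 1.14% did in PFMP, 1.05% in GRP3, 1.12% in GRP2/MP3 and 0.76% in BNAP/GRP1. No member had an unadjusted p under 0.05 either, where 1623, 1552, 1600 and 1629 of the 27614 genes did in the same order. The F test of any difference among the 5 populations called 0 members and 0.786% of all genes. Log2 fold changes of the members ran from -1.17 (Car4) to 0.46 (Cfp) in PFMP, from -1.79 (Car4) to 0.27 (Chil3) in GRP3, from 0.13 (Chil3) to 1.85 (Itgax) in GRP2/MP3 and from -1.29 (Car4) to 1.898 (Itgax) in BNAP/GRP1. Their standard errors were 1.23 to 4.23, since batch 3 enters the spread of each population: the residual SD of the members had a median of 2.73 against 1.04 for all genes. The selection thus made a call of a member unlikely in this fit, and its 0 calls are not read as equal levels. With batch as a block, the median residual SD was 0.74 for the members and 0.76 for all genes. That fit also called 0 members in each contrast and in the F test, where it called 2.34% of all genes. Its unadjusted p was under 0.05 for 0 members in PFMP, 1 in GRP3, 1 in GRP2/MP3 and 2 in BNAP/GRP1. Over all 27614 genes tested, it was under 0.05 for 3130, 2997, 3019 and 3983 genes in the same order.

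Car4, Itgax and Acp5 had the lowest p-values of the F test with the block. Car4 in NSCs was at 11.7, 5.82 and 21.2 RPKM in batches 1, 2 and 4, and in GRP3 it was at 0.51, 0.37 and 4.32 RPKM. It was thus lower in GRP3 than in NSCs in 3 of the 4 batches, by -3.07, -2.31 and -2.06 on the log2 scale, and differed by 0.28 in batch 3. The fold change was -1.79 ± 1.29 (SE; limma adjusted p = 1) and, with the block, -1.79 ± 0.64 (limma adjusted p = 0.201). The summed level of 8 endothelial genes was 257, 155 and 66.3 RPKM in NSCs and 56.6, 23.9 and 51.5 RPKM in GRP3 of batches 1, 2 and 4, so it too was lower in GRP3 in these 3 batches, and the fit with the block called Cldn5 lower in GRP3. The part of endothelium in the Car4 difference was not tested. GRP3 was not alone in its lower Car4. In batches 1, 2 and 4 the log2 difference from NSCs was -3.12, -1.14 and -0.84 in PFMP and -2.96, -2.56 and 0.13 in BNAP/GRP1. In GRP2/MP3 it was 0.19, 0.82 and 2.52. With batch 3 left out and the block kept, limma's F test called Car4 (adjusted p = 0.0215, range over all alternatives 0.0215 to 1). It called no other member (adjusted p of at least 0.126). Of the 27614 genes tested, the same F test called 853. This alternative was chosen after seeing the data.

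Itgax was high outside batch 3 in 3 libraries, BNAP/GRP1 of batch 1 (35.2 RPKM), GRP2/MP3 of batch 1 (20.2 RPKM) and GRP2/MP3 of batch 2 (8.70 RPKM). These are the libraries with the highest summed level of 12 microglial genes, at 3451, 1941 and 3166 RPKM, where the median of the 15 libraries outside batch 3 was 90.2 RPKM. Outside batch 3 they also had the highest summed level of 8 border-associated macrophage genes, at 828, 3715 and 565 RPKM. In NSCs outside batch 3 Itgax was at 0.055 to 0.40 RPKM and the microglial sum at 24.1 to 90.2 RPKM. The difference from NSCs in BNAP/GRP1 was 5.10, 1.07, 0.07 and 1.35 on the log2 scale in batches 1 to 4, with a fold change of 1.898 ± 1.43 (SE; limma adjusted p = 0.866) and an adjusted p of 0.294 with the block in limma. The part of microglia or border-associated macrophages in the Itgax level was not tested. Acp5 was higher in BNAP/GRP1 than in NSCs in all 4 batches, by 1.29, 1.87, 0.07 and 1.68, a fold change of 1.23 ± 1.94 (SE; limma adjusted p = 0.869) that had an adjusted p of 0.232 with the block. The microglial sum in batches 1, 2 and 4 was 3451, 640.4 and 125 RPKM in BNAP/GRP1, and the border-associated macrophage sum 828, 177 and 221 RPKM, against 14.9 to 61.8 RPKM of the latter in NSCs. The part of these cells in the Acp5 level was not tested either. Across the 10 genes and 4 progenitors, the differences within batch 3 ran from -0.06 to 0.43 on the log2 scale, and those within batch 1 from -3.12 to 5.10.

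**Figure D3:**
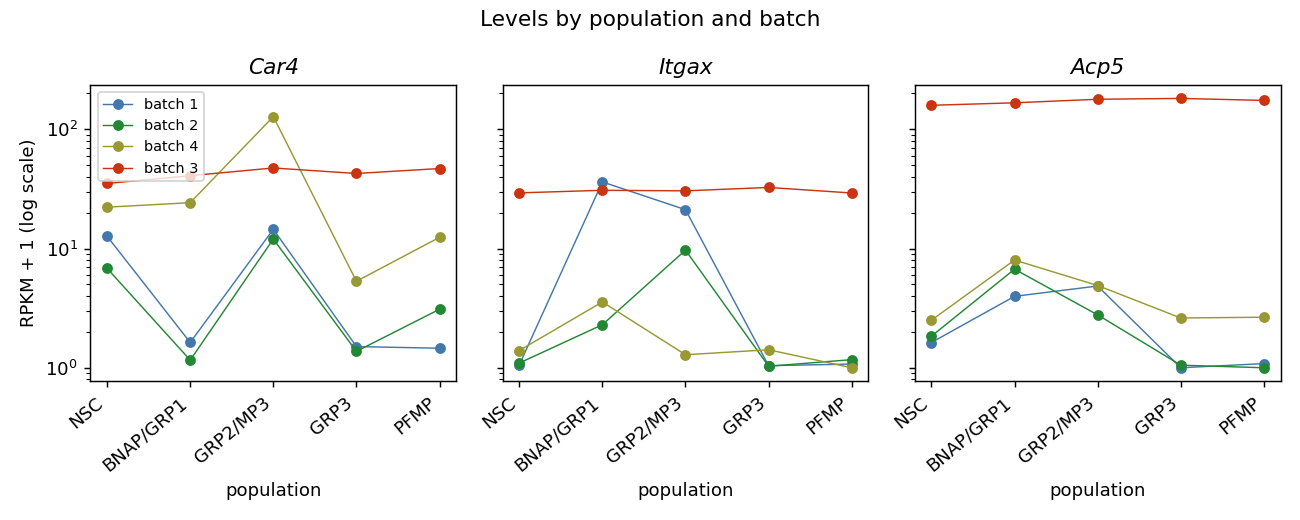
RPKM + 1 on a log scale of Car4, Itgax and Acp5 in the 5 populations, 1 line per batch and 1 library per point. The batch 3 lines are flat, with Car4 at 34.1 to 46.4 RPKM. In batches 1, 2 and 4 Car4 is lower in GRP3 and in PFMP than in NSC. Itgax reaches 35.2 RPKM in BNAP/GRP1 of batch 1.

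Many neighbours of the 10 genes in the alveolar macrophage programme were high in batch 3 as well. Of 18 other alveolar macrophage genes, all tested, 11 were higher in all 5 batch 3 libraries than in all 15 others (5.18% of all genes), and none was lower in all of them. This and the other gene lists were chosen with earlier results of these data known. Their counts are thus a description, not a test. Gpnmb, a lysosomal glycoprotein, was at 2052 to 2362 RPKM in batch 3 against at most 280 elsewhere, and Ctsk, a cysteine protease, at 431 to 488 against at most 8.64. Siglecf, a sialic acid receptor that defines these cells in flow cytometry, was at 9.16 to 11.3 RPKM against at most 7.43, and the eosinophil-associated ribonuclease Ear2 at 309 to 398 against at most 51.8. Not all of the list differed: Cd9, a tetraspanin, at 993 to 1079 RPKM, and the lipase Lpl at 322 to 351 overlapped with other libraries, and Ear6 and Ear10 were at 0 to 0.27 and 0.43 to 1.36 RPKM in batch 3.

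Several signalling genes around PPARG were high in batch 3 too. Of 17 genes of the GM-CSF, TGF-beta and PPARG axis, 9 were higher in all batch 3 libraries, as were 5.18% of all genes. The cytokine gene Csf2 itself was at 79.9 to 94.5 RPKM (at most 3.56 elsewhere), and the receptor chains Csf2ra and Csf2rb were at 92.7 to 108 and 75.4 to 87.6 RPKM (at most 12.3 and 16.1). Csf2rb2, a near copy of Csf2rb with which reads may be shared, was at 34.3 to 44.3 RPKM. Of the transcription factors, Cebpb was at 389 to 462 RPKM and Spi1, which encodes PU.1, at 166 to 192, while Bhlhe41, a repressor used by alveolar macrophages for self-renewal, overlapped (23.4 to 26.5 against up to 86.1 in NSC of batch 4). Rxra, the partner of PPARG, was at 11.4 to 12.7 RPKM against at most 9.60. Of 13 lipid genes regulated by PPARG, 3 were higher in all batch 3 libraries (5.18% of all genes): the scavenger receptor Cd36 (293 to 336 RPKM), the lipid droplet coat Plin2 (455 to 531) and the transfer protein Pltp (151 to 164). Fabp5 at 1064 to 1237 RPKM and the cholesterol exporter Abcg1 at 36.8 to 43.1 lay within the range of the others, which reached 3202 and 760 RPKM.

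Close relatives of the 10 genes did not share their pattern throughout. Of 46 paralogs, 38 were tested, 8 of which were higher (5.18% of all genes) and 3 lower (6.97% of all genes, a share near that of the paralogs) in all batch 3 libraries. The neighbours of Clec4d in the lectin cluster, Clec4e (Mincle) and Clec4n (Dectin-2), were at 1053 to 1200 and 967 to 1033 RPKM, while Clec4a2 was at 16.2 to 18.3 RPKM, below its 40.6 RPKM in GRP2/MP3 of batch 1. Saa1 and Saa2 were at 4.64 to 11.6 and 1.12 to 3.51 RPKM in batch 3, where Saa3 was at 21804 RPKM or more, and Chil4, a near copy of Chil3, at 0.13 to 0.18. Of the other fatty acid binding proteins, Fabp7, a marker of radial glia, was lower in all batch 3 libraries (140 to 239 RPKM against 301 to 14732). Among the integrins, Itgam (CD11b) was at 100 to 114 RPKM, above the 92.7 of the highest other library. Of 18 partners tested, 10 were higher and 1 lower in all batch 3 libraries, beside 5.18% and 6.97% of all genes. Itgb2, the integrin beta chain CD18 that pairs with CD11c, was at 317 to 359 RPKM, complement factor B (Cfb), which properdin stabilises in the convertase, at 249 to 292, and Syk, the kinase downstream of the lectins, at 54.9 to 65.6. Fcer1g, the signalling chain of the lectins, was at 944 to 1043 and reached 6018 RPKM in GRP2/MP3 of batch 1.

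Markers of other cells were unevenly present in batch 3. Each count of genes higher in all batch 3 libraries, here and in the next paragraph, stands beside 5.18% of all genes tested. In lists this short, a count of 1 is not read as a result about the cell type. None of 12 microglial genes was higher in all batch 3 libraries, where their sum was 467 to 557 RPKM. Trem2, which other macrophages also make, was at 275 to 334 RPKM, and the homeostatic P2ry12, Fcrls and Sall1 were at 0.91 to 1.49, 1.21 to 2.46 and 0 to 0.38 RPKM there. Of 7 border-associated macrophage genes tested, 1 was higher (Ms4a7, at 65.3 to 78.8 RPKM). Pf4 was at 1583 to 1917 RPKM (median elsewhere 16.4, highest 2365) and Stab1 at 210 to 246 (median elsewhere 28.3, highest 1194), while Cd163 was at most 0.32 RPKM. The border-associated macrophage sum was 1902 to 2254 RPKM in batch 3, against a median of 61.8 RPKM and a highest value of 3715 RPKM elsewhere. Of 13 lung epithelium genes tested, 5 were higher in all batch 3 libraries. The secretoglobin of club cells, Scgb1a1, was at 839 to 965 RPKM (at most 13.6 elsewhere) and Bpifa1, an airway secretory protein, at 687.5 to 784, while the surfactant protein genes of alveolar type 2 cells Sftpc and Sftpa1 were at 5.91 to 12.1 and 0.51 to 1.25 RPKM. Of 8 lymphocyte genes tested, 4 were higher, with the B cell gene Ms4a1 at 76.1 to 80.3 RPKM, and of 10 neutrophil genes 3, with S100a8 at 94.96 to 105 RPKM. Other neutrophil genes were low in batch 3, with Ly6g at 0.16 to 1.38, Mpo at 0 to 0.45 and Cxcr2 at 0.05 to 0.40 RPKM. Of 5 monocyte genes tested besides the member Chil3, 1 was higher, Plac8 (352 to 406 RPKM), and of 5 dendritic cell genes 1, Ccr7 (31.9 to 39.96 RPKM). The monocyte genes Ly6c2 and Ccr2 were at 2.32 to 6.61 and 2.08 to 3.19 RPKM in batch 3 and overlapped with other libraries. The dendritic cell genes Xcr1 and Clec9a, at 0.40 to 0.60 and 0.47 to 1.17 RPKM, overlapped too.

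Other cells that make single members were checked by their defining markers. No adipocyte gene was higher in all batch 3 libraries (3 of 8 tested), with Adipoq at most 0.013 RPKM and Plin1 at most 0.083 RPKM. None of 8 endothelial genes was higher, with Cldn5 and Cdh5 at 0 to 0.61 and 0 to 0.29 RPKM and Pecam1, which leukocytes also make, at 3.42 to 5.51. Of 3 osteoclast genes tested, Ctsk was higher and Dcstamp and Mmp9 overlapped, while Ocstamp, Oscar and Calcr were below 1 RPKM throughout the batch. How far each of these cell types contributed to the levels of the 10 genes was not tested.

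**Figure D4:**
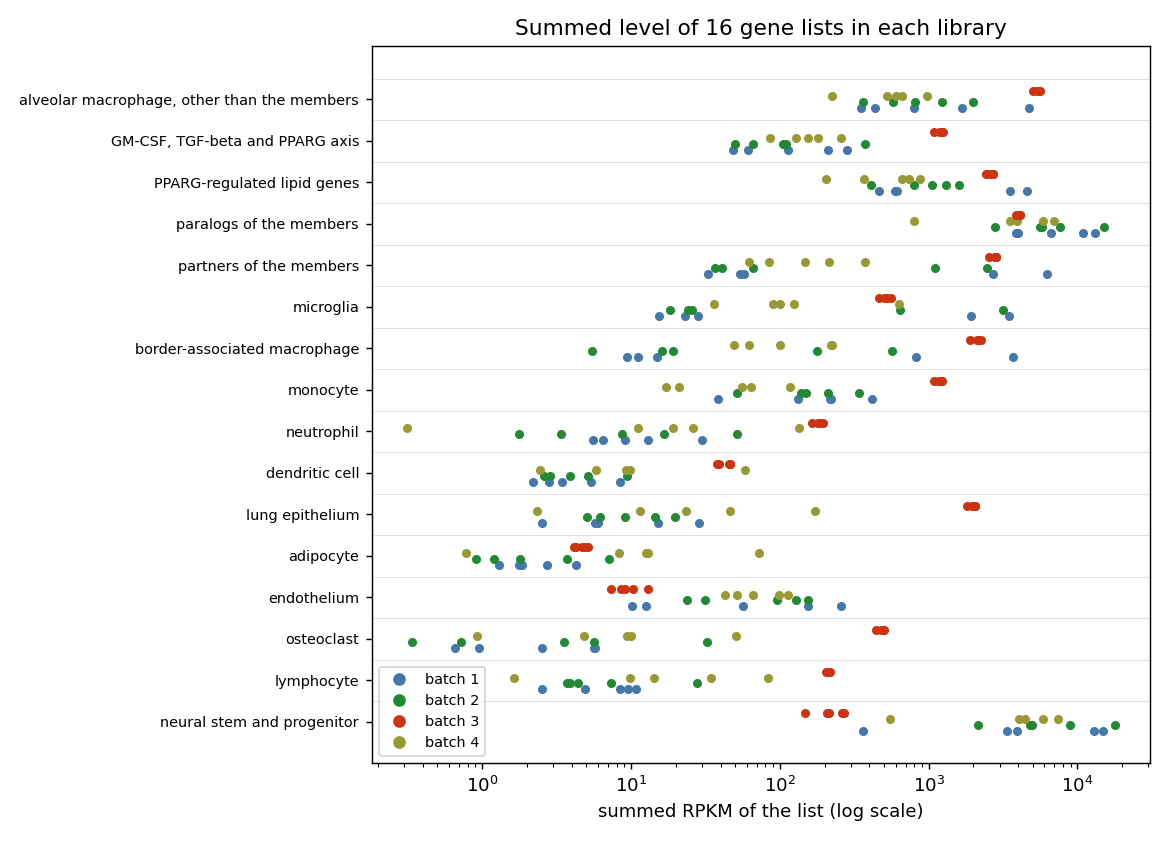
Summed RPKM of the genes of each of 16 lists on a log scale, 1 point per library coloured by batch. Batch 3 lies highest for the other alveolar macrophage genes (5025 to 5582 RPKM), the GM-CSF axis, monocyte, neutrophil, lung epithelium, osteoclast and lymphocyte lists (the monocyte list holds the member Chil3; without it, 538 to 609 RPKM in batch 3 and at most 415 elsewhere) and lowest for the neural list (148 to 272 RPKM).

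The levels of the 10 genes were also compared over the libraries. The correlation of log2(RPKM + 1) between members had a median of 0.947 over 45 combinations and 20 libraries, which the batch 3 difference by which they were selected dominates, 0.485 (-0.14 to 0.872) over the 15 other libraries and 0.407 (-0.41 to 0.739) over the 14 that remain without BNAP/GRP1 of batch 4, the shallowest. Among all genes tested, the 10 most alike to the mean of the members over 20 libraries were Cd274, Clec4e, Lyz1, Serpinb2, Xdh, Cybb, Iglv1, Cpa3, Pirb and Retnla (r = 0.993 to 0.990). Cd274, which encodes the checkpoint ligand PD-L1, was at 48.8 to 59.3 RPKM in batch 3 and at most 4.72 elsewhere. Serpinb2, a protease inhibitor induced in activated macrophages, was at 2006 to 2213 RPKM against at most 10.9, and Cybb, the catalytic subunit of the phagocyte oxidase, at 809 to 902 against at most 12.3. Iglv1, an immunoglobulin light chain segment, and Cpa3, a mast cell protease, were at 93.6 to 130 and 60.5 to 70.2 RPKM in batch 3. The points share their batch and depth, and the correlations are given as a description only.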

How the data were processed

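RNA of 20 sorted populations was sequenced for the study. The authors deposited 1 table of RPKM per gene. Per the labels and the study's methods, reads were run through nf-core/rnaseq 3.10 with FastQC 0.11.9, cutadapt 3.4, STAR 2.6.1 on GRCm38 and Salmon 1.9.0, DESeq2 1.26.0 was used for the authors' comparisons, and 2 experiments were excluded for low quality. Gene lengths and read totals behind the RPKM are not given in the sources used here. A further 26 columns without a header held no values and were not used.

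Values were taken as log2(RPKM + 1), which understates changes of low genes, for genes reaching 1 RPKM in 4 or more libraries. Populations were compared with limma 3.58.1 in R 4.3.3 (trended prior, all 20 libraries, no batch term, as the study names none), adjusted by Benjamini-Hochberg over 27614 genes with 0.05 as the threshold, and the fit was tested on simulated data. The batch numbers in the labels pair the samples: after removing population means, libraries of the same batch correlated with medians of 0.337, 0.262, 0.769 and 0.581 in batches 1 to 4 (at least 0.0341), and those of different batches with a median of -0.204. P-values rest on 1 spread per gene between libraries of the same population, pooled over the 5 populations and moderated by the prior. The choices varied were the replicate block, the scaling (median-of-ratios or quantile), the pseudocount (0.1), the filter (none, or a mean of 5 RPKM), the trend of the prior, leaving out each library or batch and, added later, batch 3 left out with the block. Fits that left out a library or a batch kept the genes that passed the filter over all 20 libraries. Whole reads were recovered per gene, not for the table, so no count test was run.

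Positions are from GENCODE vM21 and promoters from RefSeq (GRCm38.p6). The members and the 16 gene lists were chosen with earlier results of these data known. Named besides the members were the 4 genes of each list with the highest mean RPKM, as far as they bear on a value, defining markers, and the 10 genes most alike to the members. The level of 1 gene that this rule names is not reported here. Others (for instance Ear6, Csf2, Cd36, Saa1 and Syk) were named after their values were seen. Python 3.11.15, pandas 2.3.3 and matplotlib 3.10.9 were used for summaries and plots.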

Additional observations from a re-analysis of the deposited data

Results flagged for a closer look

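In a population of 4 libraries, the batch 3 library stood far from the other 3 in 26 of 50 combinations of gene and population, by the gap to the nearest library as a share of the whole range of log2(RPKM + 1). The genes were selected for their level in batch 3, so these shares restate that selection and are given as a description, not as a test. A share was marked if it passed the critical value of Dixon's test for 4 libraries, and the lowest marked share was 0.835. Marks were not counted over all genes tested, so how often other genes would be marked in batch 3 is not known. For Pparg the share was 0.843 in PFMP. For Marco the share was 0.993 in PFMP, 0.916 in GRP3 and 0.92 in NSC. For Chil3 the share was 0.986 in PFMP, 0.856 in GRP3, 0.921 in GRP2/MP3 and 0.888 in NSC. For Saa3 the share was 0.983 in PFMP, 0.896 in GRP3, 0.924 in BNAP/GRP1 and 0.899 in NSC. For Clec4d the share was 0.988 in PFMP, 0.869 in GRP3, 0.849 in GRP2/MP3, 0.835 in BNAP/GRP1 and 0.907 in NSC. For Cfp the share was 0.967 in GRP3 and 0.86 in NSC. For Itgax the share was 0.954 in PFMP, 0.908 in GRP3 and 0.916 in NSC. For Fabp4 the share was 0.898 in PFMP and 0.953 in GRP2/MP3. For Acp5 the share was 0.864 in GRP2/MP3 and 0.906 in NSC. Car4 had none, and in the remaining 24 combinations the next library lay too near for a mark.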

How the results depend on the processing

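Of 112 alternative counts of members called, 111 stayed at 0. The exception was the F test with batch 3 left out and the replicate block, which called 1 member (Car4). In fits with batch 3 and no block, the selection widened the spread of the members, so their counts of 0 are not read as equal levels. Counts over all genes were less stable, and the causes were not tested. For BNAP/GRP1, GRP2/MP3, GRP3, PFMP and the F test in that order, 210, 308, 290, 316 and 217 genes were called. With the replicate block (the batch as pairing) there were 576, 851, 719, 771 and 646, and with batch 3 left out as well 459, 745, 671, 692 and 853. A pseudocount of 0.1 gave 75, 174 and 156 in BNAP/GRP1, GRP2/MP3 and GRP3 and 102 in the F test. Quantile normalization gave 441 in BNAP/GRP1, 454 in GRP3 and 346 in the F test. With 1 library or 1 batch left out the counts ran from 16 to 437, 29 to 560, 44 to 516, 51 to 569 and 11 to 550. The lowest counts came without batch 2. The highest came without NSC of batch 3 in GRP2/MP3, GRP3 and PFMP, without BNAP/GRP1 of batch 4 in BNAP/GRP1, and without batch 3 in the F test. Where an arm was left with fewer libraries, its spread was taken from the pooled fit. The median difference of the members between batch 3 and the rest was 7.81 with a pseudocount of 0.1 instead of 6.03 and 5.96 to 6.18 with 1 library left out. In libraries outside batch 3 the members had few recovered reads, and these numbers are a lower bound: 10 of 15 had at most 3 for Saa3. PFMP of batch 4, at a relative depth of 0.985, had 0 Saa3 reads. NSC of batch 3, at a relative depth of 0.733, had about 407472. The part of depth in these low numbers was not tested.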
